A study of Mus musculus with 3 samples.

Results

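Chemokine receptors are membrane proteins that pass through the cell membrane several times and couple to inhibitory G proteins, and they steer leukocytes along gradients of small secreted chemokines. In tumors they are known for recruiting monocytes and T cells from the blood and for keeping cells in place once there. The 9 receptor genes described here were Ccr1, Ccr2, Cx3cr1, Ccr4, Ccr6, Cxcr3, Cxcr4, Cxcr5 and Cxcr6, out of 33506 genes with a level in the table. They are a part of the family, chosen by name with earlier results of these data known, and 15 other receptors are described further below. All 9 were found in the mm9 annotation. For each transcript identifier the first row with a value in all 3 columns was kept, and the transcripts of a gene were summed.

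The study sequenced RNA of type-1 macrophages (M1), type-2 macrophages (M2) and CD4 T lymphocytes (CD4), sorted from BALB/C mice bearing tumors of Renca, a mouse renal carcinoma cell line, in the kidney (the methods name Renca Ch+L+, the Cherry Luciferase line derived from it, for these mice), in order to examine Foxp3 mRNA in macrophages. Each subset had 1 library, and 30 tumors and 4 spleens were harvested for the whole sort, so that no difference below has a replicate check and no test between subsets was possible. Time after tumor injection is labelled both as day 14 and as day 16. For CD4 T cells, one label gives spleen as the source and another gives tumor. The sort used antibodies against CD11b, F4/80, TCRbeta, CD4 and CD45.2, and in the methods M2 were F4/80 high and CD11b intermediate, M1 F4/80 intermediate and CD11b high. Which animals gave which library was not stated.

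Genes that define cell types went against 2 of the labels. All 10 T-cell markers were highest in the library labelled M2, with a summed level of 1378 FPKM there, 5.32 in the one labelled M1 and 2.46 in the one labelled CD4. FPKM is the number of sequenced fragments per kilobase of transcript and 1000000 mapped reads. All 10 macrophage markers were lowest in the library labelled M2, at a sum of 291 FPKM, against 2210 in M1 and 5567 in CD4. For this reason each library is called by its label only, and every direction below rests on that label. Of 8 B-cell markers 6 were highest in the library labelled M2, at sums of 65.6 FPKM there, 0.482 in M1 and 0.547 in CD4, while Cd79b was listed at 0 in M2 and Pax5 at 0 in all 3. The sums of 7 CD8 and NK cell markers were 3.50, 16.9 and 0.469 FPKM in M1, M2 and CD4, those of 8 neutrophil markers 66.99, 232 and 35.7, and those of 5 monocyte markers 271, 83.9 and 393. S100a8 and S100a9, at 84.5 and 110 FPKM, made up most of the neutrophil sum in M2. Of the 8 neutrophil markers 6 were highest in M2 and 2 in CD4. F13a1, at 378 FPKM, made up most of the monocyte sum in CD4, while 3 of the 5 markers were highest in M1. The 5 dendritic cell markers summed to 126, 22.5 and 31.8 FPKM and the 6 kidney epithelial markers to 38.3, 102 and 54.6 in M1, M2 and CD4. Most of the dendritic cell sum in M1 and CD4 was Itgax, at 124 and 29.5 FPKM, against 5.30 in M2. Of these 5 markers 3 were highest in M2 and 2 in M1. Cdh16 made up most of the kidney sum in each library, at 33.4, 87.8 and 46.0 FPKM. What part these cell types had in the receptor levels was not tested. In RNA from many cells, fewer cells of a type cannot be told apart from less RNA per cell.

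The receptors share a short stretch at the end of the third membrane helix, where an aspartate, an arginine and usually a tyrosine stand together, a motif needed for coupling to G proteins. These stretches are shown for 8 of the 9 genes because they identify the family. They were read from the mm9 reference transcripts, lie in coding exons, and are written 5′ to 3′ along the mRNA with the 3 codons of the motif in capitals. The reference is not the BALB/C genome.
Ccr1 (chr9:123878911-123878949, reverse strand): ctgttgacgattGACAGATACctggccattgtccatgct
Cx3cr1 (chr9:119961048-119961086, reverse strand): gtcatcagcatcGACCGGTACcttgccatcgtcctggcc
Ccr4 (chr9:114401688-114401726, reverse strand): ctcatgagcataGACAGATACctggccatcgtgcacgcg
Ccr6 (chr17:8449217-8449255, forward strand): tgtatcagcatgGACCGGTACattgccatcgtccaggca
Cxcr3 (chrX:98927929-98927967, reverse strand): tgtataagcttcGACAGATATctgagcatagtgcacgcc
Cxcr4 (chr1:130486071-130486109, reverse strand): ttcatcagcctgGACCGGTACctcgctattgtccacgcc
Cxcr5 (chr9:44321974-44322012, reverse strand): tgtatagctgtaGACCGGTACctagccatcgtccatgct
Cxcr6 (chr9:123719444-123719482, forward strand): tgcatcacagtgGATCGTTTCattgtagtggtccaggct

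The third codon of the motif encoded phenylalanine in Cxcr6 and tyrosine in the others shown. Coding sequences were alike but not near identical, with Ccr1 and Ccr2 the closest pair at 67.7% identical bases over 1040 aligned bases. At the read length of 51 bases, 10.1% of the windows of the Ccr2 coding sequence also occurred in another protein-coding gene, so that some fragments of Ccr2 cannot be assigned to it alone. For the coding sequences of the other 8 genes 0% of windows did. Of the members, 6 lie on chromosome 9 and 1 each on chromosomes 1, 17 and X. No exon of a member overlapped an exon of another annotated gene, on either strand.

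From the first rows, the receptors other than Ccr6 fell into 3 kinds of pattern. Ccr1, Ccr2 and Cx3cr1 were lowest in the library labelled M2 and high in the other two. Ccr4, Cxcr3, Cxcr5 and Cxcr6 were at 5.48 to 19.1 FPKM in the library labelled M2 and at or near 0 in the other two, apart from Cxcr3 in the one labelled CD4. Cxcr4 was between 35.1 and 69.9 FPKM in all 3 libraries. Ccr6 was low in all 3, with its highest level, 2.63 FPKM, in the library labelled M2. With every row summed, Cxcr4 was at 278 FPKM and Ccr6 at 7.85 in that library. The library labelled M2 held the highest level of 6 of the 9 genes, that labelled CD4 of 2 and that labelled M1 of 1. Over the 21298 genes with a single highest library the shares were 46.4% for M2, 26.8% for CD4 and 26.8% for M1.

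**Figure D1:**
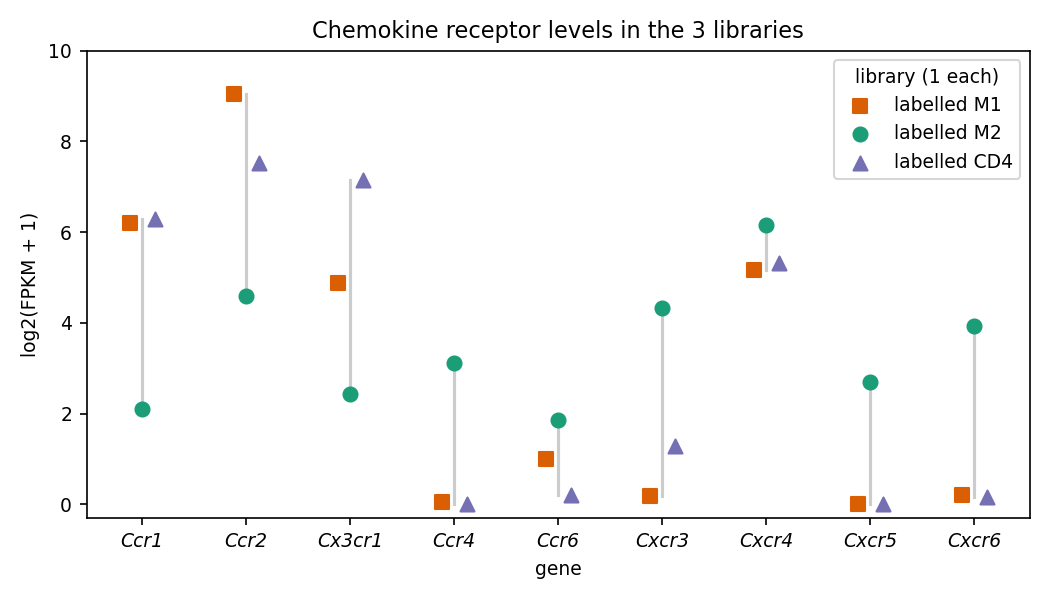
Level of each chemokine receptor gene on the log2(FPKM + 1) scale in the libraries labelled M1 (squares), M2 (circles) and CD4 (triangles), with 1 library each and a grey line from the lowest to the highest. Ccr1, Ccr2 and Cx3cr1 were lowest in the library labelled M2, and the other 6 genes were highest in it.

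The receptors of the first kind are those that circulating monocytes and macrophages use. Ccr2 (ENSMUSG00000049103, chr9:124016689-124028296) binds Ccl2 and brings monocytes out of the bone marrow. It was at 526 FPKM in the library labelled M1, 183 in the one labelled CD4 and 23.1 in the one labelled M2. Counting error put these levels at 523 to 529, 181 to 185 and 22.5 to 23.8 FPKM. Ccr2 was the highest of the 9 genes in the libraries labelled M1 and CD4 and lay above 99.7% and 98.6% of the protein-coding genes with a level above 0 in them. Its level in the library labelled M1 was 2.88 times that in CD4, with a 95% interval of 2.85 to 2.91, and 22.7 times that in M2 (22.1 to 23.4). These intervals, here and below, cover the counting of fragments only and not the variation between mice. They rest on fragment numbers estimated from FPKM, transcript length and estimated depth, and for Ccr2 these were about 106377 fragments in M1, 49827 in CD4 and 4716 in M2.

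Ccr1 (ENSMUSG00000025804, chr9:123876959-123883525), a receptor for Ccl3 and Ccl5 on monocytes, macrophages and neutrophils, was at 72.4 FPKM in the library labelled M1, 76.8 in the one labelled CD4 and 3.31 in the one labelled M2. The first 2 levels lay close together, with a ratio of 1.06 for CD4 over M1, and their order turned when each library was scaled to the same total FPKM. Among protein-coding genes with a level above 0, Ccr1 lay above 95.6% in M1, 96.1% in CD4 and 44.2% in M2. The level in M2 was lower than in CD4 by a factor of 23.2 (21.3 to 25.3) and lower than in M1 by a factor of 21.9 (20.1 to 23.8).

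Cx3cr1 (ENSMUSG00000052336, chr9:119957811-119977400), the fractalkine receptor of resident macrophages and patrolling monocytes, was at 140 FPKM in the library labelled CD4, 28.6 in the one labelled M1 and 4.38 in the one labelled M2. Of the 3 receptors it separated the libraries labelled CD4 and M1 most, with a ratio of 4.89 (4.76 to 5.02). Ccr2 went the other way between the same libraries. Against M2, Cx3cr1 was higher in CD4 by a factor of 32.0 (30.0 to 34.1) and in M1 by a factor of 6.54. The 10 macrophage markers, at sums of 5567 FPKM in CD4 and 2210 in M1, had their highest level in the library labelled CD4 for 8 genes, and of the 5 monocyte markers 4 were past a difference of 1 on the log2(FPKM + 1) scale higher in M1 and 1, F13a1, was lower, at 54.3 FPKM in M1 and 378 in CD4. The part of these cells in the receptor levels was not tested.

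The second kind are receptors best known on T cells, and for Cxcr5 also on B cells. Cxcr3 (ENSMUSG00000050232, chrX:98926874-98929608) binds the chemokines induced by interferon gamma and marks Th1 and effector CD8 T cells. It was at 19.1 FPKM in the library labelled M2, 1.42 in the one labelled CD4 and 0.140 in the one labelled M1. The level in M2 was 13.4 times that in CD4 (11.6 to 15.7) and 136 times that in M1 (80.8 to 249). The libraries labelled CD4 and M1 also stood apart, by a factor of 10.1 (5.87 to 18.9), at about 184 and 14 fragments.

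Cxcr6 (ENSMUSG00000048521, chr9:123715595-123720872), which binds membrane-bound Cxcl16 and is found on effector and tissue-resident T cells and NKT cells, was at 14.3 FPKM in the library labelled M2. Its level was 0.156 FPKM in the one labelled M1 and 0.118 in the one labelled CD4, about 17 fragments in each. These last 2 levels did not differ beyond counting error, with a ratio of 1.33 and an interval of 0.638 to 2.77.

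Ccr4 (ENSMUSG00000047898, chr9:114399434-114405662), the receptor for Ccl17 and Ccl22 on Th2 and regulatory T cells, was at 7.67 FPKM in the library labelled M2 and at 0.0324 in the one labelled M1. In the library labelled CD4 it was at 0.00609 FPKM, which is about 1 fragment. The ratio of M2 to CD4 was 1259 with an interval of 226 to 49753, and that of M2 to M1 was 237 (101 to 731). The levels labelled M1 and CD4 did not differ beyond counting error, at about 5 and 1 fragments.

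Cxcr5 (ENSMUSG00000047880, chr9:44319871-44334504), which guides B cells and follicular helper T cells into follicles along Cxcl13, was at 5.48 FPKM in the library labelled M2. It was listed at 0 in the libraries labelled M1 and CD4, where 3 fragments would give 0.0196 and 0.0153 FPKM. Cd79b was likewise listed at 0 in the library labelled M2, beside Cd79a, its partner chain in the B-cell receptor, at 18.2 FPKM. Whether such a 0 is an absence, a failed estimate or an effect of the rows kept was not tested. For Cxcr5 no row was left out. No ratio is given for Cxcr5, since the level to divide by was 0. In the counts below it stands as past the fold higher in M2, at 2.70 on the log2(FPKM + 1) scale against each library, with these values of 0. B-cell markers stood in the same library, with Ms4a1 at 13.5 FPKM and Cr2 at 5.83, and Cd3e of T cells was at 126 FPKM. Their part in the level of Cxcr5 was not tested.

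Ccr6 (ENSMUSG00000040899, chr17:8429077-8449992), the receptor for Ccl20 on Th17 cells, B cells and some dendritic cells, was at 2.63 FPKM in the library labelled M2, the lowest of the 9 genes there from the first rows but the fifth highest with every row summed. It was at 1.01 FPKM in the one labelled M1 and 0.148 in the one labelled CD4. The level in M2 was 17.8 times that in CD4 (10.7 to 31.7) and 2.61 times that in M1 (1.99 to 3.44). Its level in M1 was in turn 6.81 times that in CD4, so that all 3 levels lay outside each other's counting error.

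Cxcr4 (ENSMUSG00000045382, chr1:130484776-130488870), the receptor for Cxcl12 that most leukocytes and many tumor cells carry, was at 69.9 FPKM in the library labelled M2, 39.1 in the one labelled CD4 and 35.1 in the one labelled M1. Its ratio of M2 to CD4 was 1.79 (1.72 to 1.86) and that of M2 to M1 1.99 (1.91 to 2.08), both under the fold of 2 used for counting. On the log2(FPKM + 1) scale these differences were 0.82 and 0.97, and they passed 1 when libraries were scaled to their mean total FPKM, at 1.08 and 1.12, or when the highest transcript stood for the gene, at 1.06 and 1.14. With every row summed they were 2.80 and 2.95. The libraries labelled CD4 and M1 differed by a factor of 1.11 (1.06 to 1.16). Cxcr4 was the highest of the 9 genes in the library labelled M2 and lay above 96.4% of the protein-coding genes there.

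Differences were counted where the difference of log2(FPKM + 1) was at least 1 in size, a scale on which low genes change less than their ratios do. Between the libraries labelled M2 and CD4, 5 of the 9 members were higher in M2 and 3 lower, while over all genes 6.40% were higher and 5.68% lower. Among the 12415 genes with at least 1 FPKM in either library, as all 9 members had, the shares were 17.3% and 15.3%. Scaling to the mean total changed the split over all genes from 2146 higher and 1902 lower to 2850 and 1542. The largest differences on this scale were -4.71 for Cx3cr1, -4.17 for Ccr1 and 3.78 for Cxcr6. Between the libraries labelled M2 and M1, 4 members were higher in M2 and 3 lower, against 6.27% and 5.38% of all genes and 16.9% and 14.5% of those with at least 1 FPKM. The split over all genes, 2102 higher and 1801 lower, turned to 251 and 295 with each library scaled to a total of 1000000 FPKM. That setting makes the values small beside the 1 FPKM added, and at the mean total the split was 2487 and 1578. Without scaling, the largest differences between M2 and M1 were -4.45 for Ccr2, 4.14 for Cxcr3 and -4.09 for Ccr1. These comparisons share the library labelled M2, so their likeness carries no separate weight.

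The libraries labelled M1 and CD4 differed in fewer members. Ccr2 was past the fold higher in M1, by 1.52 on the log2(FPKM + 1) scale, and Cx3cr1 at -2.25 and Cxcr3 at -1.08 were lower. Over all genes 2.49% were higher in M1 and 2.42% lower, and 7.21% and 7.01% of those with at least 1 FPKM in either library, which 6 members had. The split over all genes, 834 higher and 811 lower, was 111 and 72 with each library scaled to a total of 1000000 FPKM, again with values small beside the 1 FPKM added. At the mean total it was 921 and 712. The median difference over the 9 members was 1.66 for M2 against CD4, 0.97 for M2 against M1 and 0 for M1 against CD4, and over all genes it was 0 in each comparison.

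**Figure D2:**
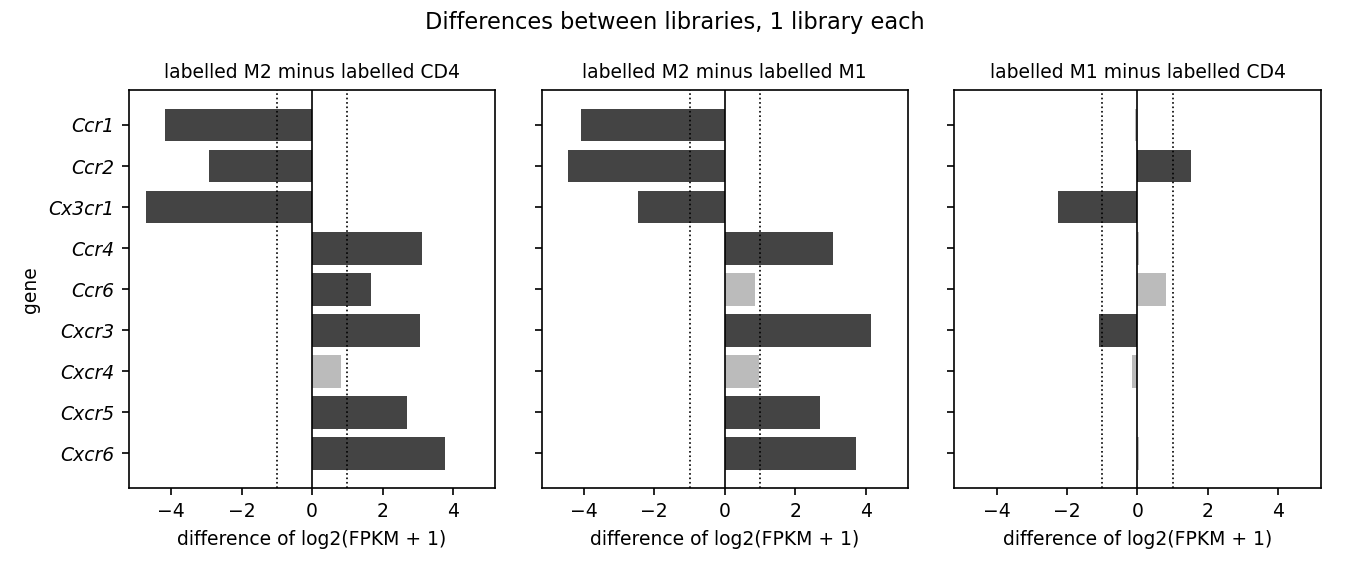
Difference of log2(FPKM + 1) for each receptor gene between the libraries labelled M2 and CD4, M2 and M1, and M1 and CD4, with dotted lines at a difference of 1 in either direction and dark bars for genes at or past it. Of the 9 genes, 8 were past the lines between M2 and CD4, 7 between M2 and M1, and 3 between M1 and CD4.

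Within each library the make-up of the receptor levels differed. FPKM is scaled by transcript length, so that genes of 1 library can be set side by side. The 9 genes summed to 664 FPKM in the library labelled M1, 440 in the one labelled CD4 and 150 in the one labelled M2. Ccr2 alone made up 79.3% of the sum in M1, 41.5% in CD4 and 15.4% in M2. Cx3cr1 made up 4.31% of the sum in M1 and 31.8% in CD4, and together Ccr1, Ccr2 and Cx3cr1 held 94.5% in M1, 90.7% in CD4 and 20.6% in M2. Cxcr4 held 46.6% of the sum in M2, followed by Ccr2, then Cxcr3 at 12.7% and Cxcr6 at 9.57%. These shares in M2 rest on the first row of each identifier. With every row summed the 9 genes came to 364 FPKM there, of which Cxcr4 held 76.5% and Ccr1, Ccr2 and Cx3cr1 together 8.57%. All 9 genes were at or above 1 FPKM in the library labelled M2, and 5 were in each of the other two.

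**Figure D3:**
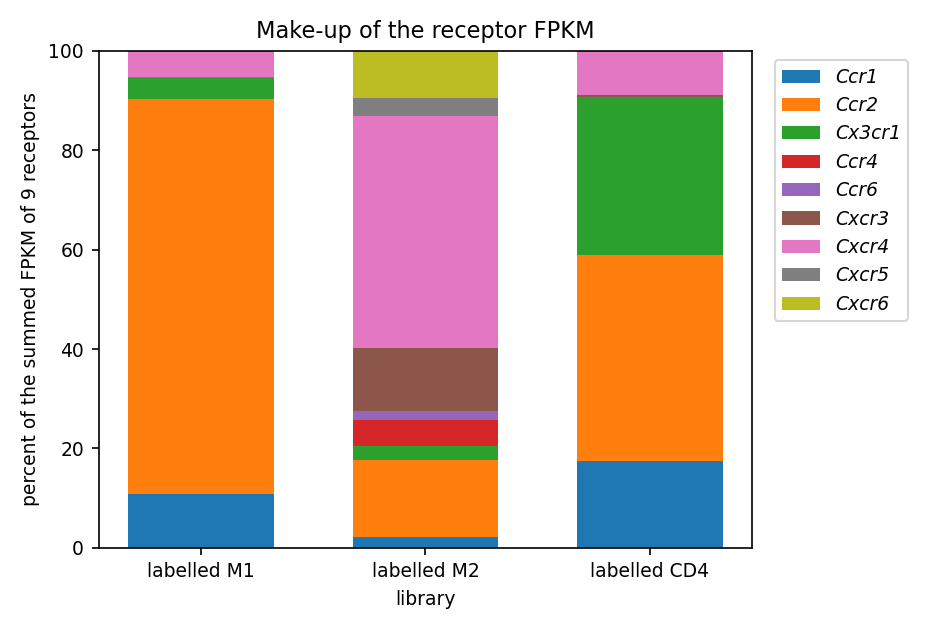
Share of each gene in the summed FPKM of the 9 chemokine receptors, in percent, in the libraries labelled M1, M2 and CD4. Ccr2 filled 79.3% of the bar for M1 and 41.5% of that for CD4, and Cxcr4 46.6% of that for M2.

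Annotated transcripts divided the levels of 3 genes. The 4 transcripts of Ccr2 share 1 coding sequence of 1122 bases and differ outside it. The transcript Ccr2-201 (3598 bases) carried 61.3% of the gene's FPKM in the library labelled M1, 59.2% in M2 and 67.3% in CD4. Ccr2-003 was the second in each, at 16.0%, 40.8% and 22.5%, while Ccr2-002 was at 77.8 FPKM in the library labelled M1 and listed at 0 in the other two. Fragments of the shared sequence are divided between such transcripts by a model, and the division was not tested here. For Ccr6, whose 4 transcripts again share 1 coding sequence, Ccr6-203 carried the whole level of the first rows in the libraries labelled M1 and M2, while the further rows described below belong to Ccr6-201. The shorter of the 2 annotated transcripts of Ccr4 was listed at 0 in every library.

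The 2 Cxcr4 transcripts differ at the start of the protein, where Cxcr4-001 has 6 bases that Cxcr4-002 lacks, after which they match over the next 200 bases. They are shown from the start codon on, with the additional bases in capitals at coding bases 16 onward.
Cxcr4-001: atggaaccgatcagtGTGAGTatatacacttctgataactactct
Cxcr4-002: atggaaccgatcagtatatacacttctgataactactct

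Cxcr4-001 was at 56.8 FPKM in the library labelled M2, 26.7 in CD4 and 25.3 in M1. The annotated model of Cxcr4-002, 902 bases long, ends inside the coding sequence, and its levels of 13.1, 12.3 and 9.84 FPKM in the same order varied less between libraries.

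Repeated rows mattered for 2 genes. Besides the row used, the table lists the identifier of Cxcr4-001 in 4 further rows that have a value for the library labelled M2 alone, at 178, 12.9, 9.09 and 8.05 FPKM. With every row summed, Cxcr4 was at 278 FPKM in the library labelled M2, 3.98 times the level from the first rows, and unchanged at 39.1 and 35.1 in CD4 and M1. The further rows of Ccr6 belong to Ccr6-201, at 2.72 and 2.50 FPKM in M2 and 0.229 in M1. With them Ccr6 was at 7.85 FPKM in place of 2.63 in M2, above Ccr4, Cxcr5, Cx3cr1 and Ccr1, and at 1.24 in place of 1.01 in M1. On this reading Cxcr4 was also past the fold of 2, with a difference of 2.80 on the log2(FPKM + 1) scale against CD4 and 2.95 against M1, and so was Ccr6 against M1, at 1.98. What sets the repeated rows apart is not stated. Sums at least double those of the rule were found for 12.1% of the genes with at least 1 FPKM in the library labelled M2, 9.34% in M1 and 9.21% in CD4.

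**Figure D4:**
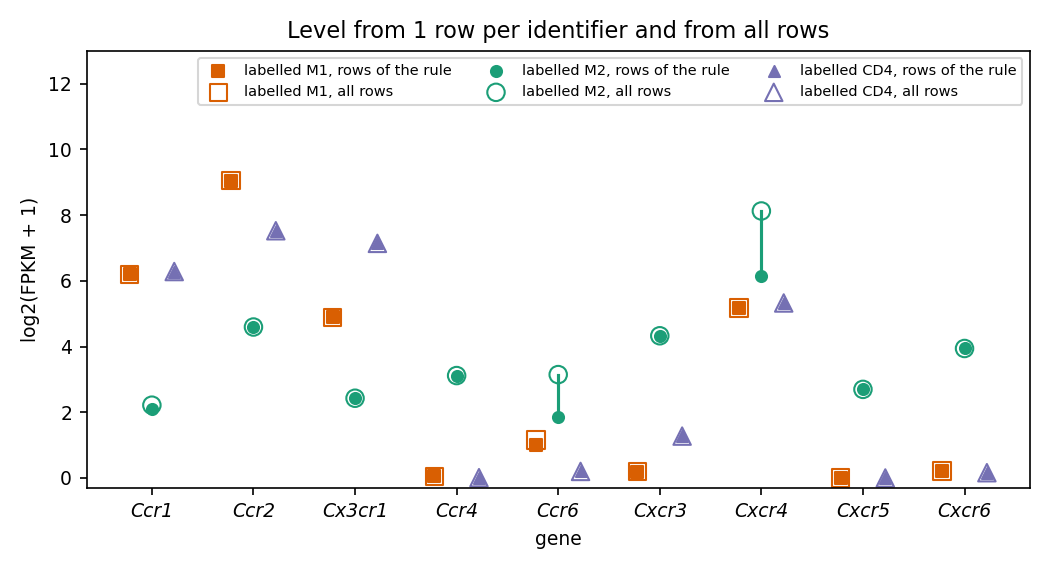
Level of each receptor gene on the log2(FPKM + 1) scale from 1 row per identifier (filled symbols) and from all rows (open symbols) in the libraries labelled M1 (squares), M2 (circles) and CD4 (triangles). Only Cxcr4 and Ccr6 in the library labelled M2 moved by more than a factor of 2, to 278 and 7.85 FPKM.

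A list of 15 other chemokine receptor genes was set beside the members. Between the libraries labelled M2 and CD4, 4 of the 15 were past the fold higher in M2 and 2 lower, with a median difference of 0.11 on the log2(FPKM + 1) scale. Ccr7, which leads naive T cells and mature dendritic cells to lymph nodes, was at 122 FPKM in the library labelled M2, 6.44 in M1 and 0.464 in CD4. This level, from the first rows, was above that of each of the 9 members there from the same rows. Cxcr4 was at 278 FPKM in M2 with every row summed, but Ccr7 on that reading is not given here, so the 2 are not ranked on it. Ccr9, the gut-homing receptor, was at 9.70 FPKM in M2 and listed at 0 in the others. Cmklr1, the chemerin receptor of macrophages, had the opposite order, at 26.3 FPKM in CD4, 16.2 in M1 and 1.00 in M2. Ccrl2, which binds chemerin without signalling, differed little, at 7.62, 9.87 and 7.66 FPKM in the same order. Cxcr7, which takes up Cxcl12, was at 2.94 FPKM in M1, 0.557 in M2 and 0.447 in CD4. The others past the fold higher in M2 than in CD4 were Ccr8, at 1.18 FPKM in M2 and 0.0274 in CD4, and Cxcr2, a neutrophil receptor, at 2.67 and 0.538 FPKM. Against M1, 3 of the 15 were higher in M2 and 3 lower, with a median of 0.13, and between M1 and CD4, 3 were higher in M1 and 0 lower, with a median of 0.00. From the first rows, the 9 members held 72.8% of the summed FPKM of all 24 receptors in M1, 68.2% in CD4 and 49.0% in M2. The share in M2 depends on these rows, since the members came to 150 FPKM there from them and to 364 with every row summed. Shares of the 24 receptors with every row summed are not given here.

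The ligands had their own order. Of 19 genes for ligands of the 9 receptors, 11 were highest in the library labelled CD4, 5 in M1 and 2 in M2, with Cxcl11 listed at 0 in all 3. Against CD4, 1 was past the fold higher in M2 and 10 lower, with a median difference of -1.09, and against M1, 1 was higher and 9 lower, with a median of -0.89. The ligand higher than in M1 was Ccl7, which was listed at 0 in M1, and what this 0 stands for was not tested. Between M1 and CD4, 3 were higher in M1 and 5 lower, with a median of -0.20. Their summed level was 2276 FPKM in CD4, 2008 in M1 and 232 in M2.

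Among the ligands of Ccr2, Ccl2 was at 363 FPKM in the library labelled CD4, 262 in M1 and 44.7 in M2. Ccl12, at 390, 47.2 and 13.7 FPKM, and Ccl7, at 245 FPKM, listed at 0 and at 21.8 FPKM, also had their highest level in CD4, whereas Ccr2 itself was highest in M1. Ccl8 followed the same order as Ccl7, at 603 FPKM in CD4, 27.8 in M1 and 34.5 in M2.

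For Ccr1, Ccl3 was at 33.4, 28.9 and 15.2 FPKM in CD4, M1 and M2, Ccl9 at 166, 74.0 and 10.3, and Ccl6 stood out in M1 at 1347 FPKM, with 234 in CD4 and 25.7 in M2. Ccl4, a close relative of Ccl3, was at 27.7, 20.4 and 13.4 FPKM. Ccl5, a product of activated T cells as well as macrophages, was the ligand past the fold higher in M2 than in CD4, at 34.1 FPKM in M2, 21.2 in M1 and 11.6 in CD4.

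Both ligands of Ccr4 were highest in M1, with Ccl17 at 40.5 FPKM there, 1.29 in CD4 and 0.603 in M2, and Ccl22 at 18.6, 0.952 and 0.497. Cxcl16, the ligand of Cxcr6, was at 169 FPKM in CD4, 81.2 in M1 and 11.3 in M2, which set its highest level apart from that of its receptor. Of the Cxcr3 ligands, Cxcl10 was at 36.7 FPKM in M1, 27.5 in CD4 and 5.91 in M2, and Cxcl9 at 1.71 and 2.51 FPKM and listed at 0. The other ligands were below 1 FPKM in every library. At their highest, Cx3cl1, the ligand of Cx3cr1, reached 0.506 FPKM, Cxcl13, that of Cxcr5, 0.430, Cxcl12, that of Cxcr4, 0.168, and Ccl20, that of Ccr6, 0.110.

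**Figure D5:**
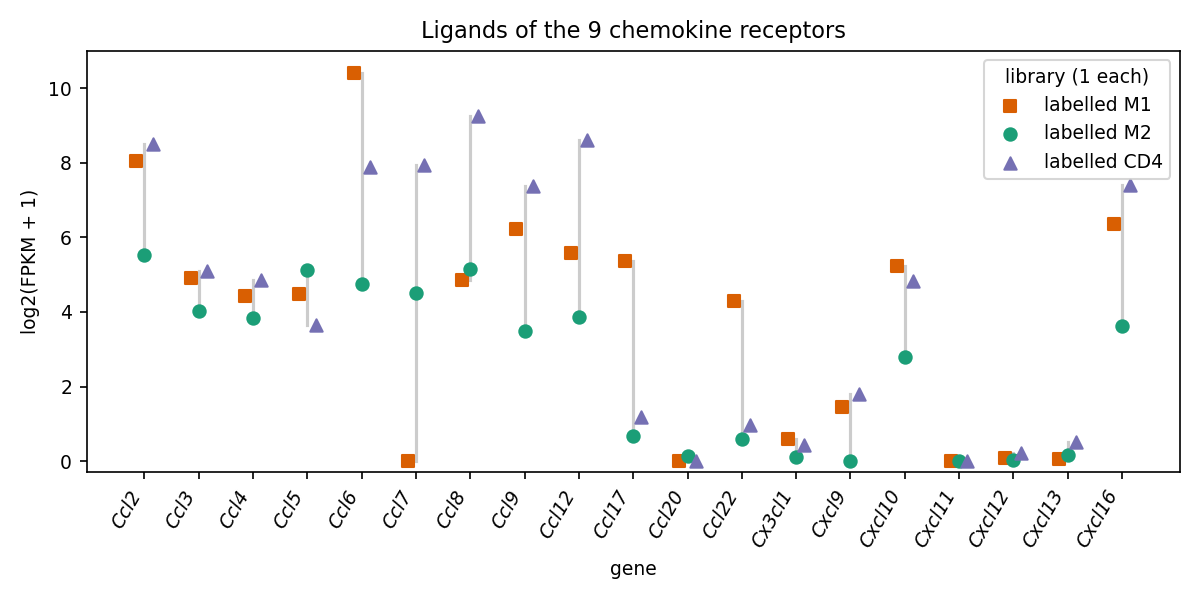
Level of 19 genes for ligands of the receptors on the log2(FPKM + 1) scale in the libraries labelled M1 (squares), M2 (circles) and CD4 (triangles), with a grey line from the lowest to the highest. Of the ligands, 11 were highest in the library labelled CD4 and 2, Ccl5 and Ccl20, in the one labelled M2.

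Genes that carry or end the receptor signal were found at a level in nearly every library. All 22 genes of this list were at or above 1 FPKM in the libraries labelled M1 and CD4 and 21 in M2. Against CD4, 4 were past the fold higher in M2 and 5 lower, with a median difference of -0.24. Against M1, 2 were higher and 7 lower, with a median of -0.37, and 3 were higher and 1 lower in M1 than in CD4, with a median of 0.14. Gnai2, the main inhibitory G protein alpha chain of leukocytes, was the highest of the list, at 380 FPKM in M1, 361 in CD4 and 187 in M2. Rac2, a GTPase of cell movement in blood cells, was at 211 FPKM in M2, 95.1 in CD4 and 34.2 in M1. Arrb2, a beta-arrestin that takes activated receptors out of signalling, was at 168 FPKM in CD4, 108 in M1 and 87.9 in M2. Adrbk1, a kinase that marks activated receptors, was even across libraries, at 110, 89.2 and 85.2 FPKM in M2, M1 and CD4. Its relative Grk6 was past the fold higher in M2, at 90.1 FPKM against 25.4 in M1 and 20.3 in CD4. Gnb1, a G protein beta chain, was at 78.2 FPKM in M1, 75.7 in CD4 and 56.8 in M2.

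Patterns were compared by the Euclidean distance between genes over the 3 libraries on the log2(FPKM + 1) scale, as a description over 3 points. Among the members, Ccr4 and Cxcr5 were closest, at 0.42, followed by Ccr4 and Cxcr6 at 0.85 and Cxcr3 and Cxcr6 at 1.18. Ccr1 and Cx3cr1 lay 1.60 apart and Ccr1 and Ccr2 3.98. Among all protein-coding genes, the closest to Ccr2 were Fn1, which encodes fibronectin, at 0.20, and Lilrb4 at 0.38. Those closest to Cx3cr1 were Trem2, a lipid receptor of macrophages, at 0.80, and Marcks at 0.82, and 0 genes lay within 0.5 of it. Ccr1 was closest to Dhrs3 (0.37) and Colec12 (0.39), and Cxcr3 to Cmah (0.25) and Rbm38 (0.55). Near the other members the table is crowded, with 96 genes within 0.5 of Cxcr5, 84 of Ccr4, 59 of Cxcr6, 59 of Cxcr4 and 35 of Ccr6, so that their neighbours are less particular. These were Ltbp3 and Slc4a1 for Cxcr5, Hmgxb3 and 2010001M09Rik for Ccr4, Cd55 and 5830405N20Rik for Cxcr6, Scamp3 and Eif4ebp2 for Cxcr4, and Msh5 and Nhsl1 for Ccr6. All distances rest on the first rows, where Cxcr4 was at 69.9 FPKM in M2 against 278 with every row summed, and Ccr6 at 2.63 against 7.85.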

How the data were processed

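RNA of 3 sorted subsets was sequenced with paired reads of 51 bases, 1 library each. The authors aligned reads to mm9 with TopHat 1.4.1 and Bowtie 0.12.8 and estimated transcripts with Cufflinks 2.1.0 guided by Ensembl release 67. The labels name Cuffdiff too. The deposited values are in FPKM, in 135070 rows, of which 10182 had no identifier. Of 92519 identifiers, 90316 were found in GENCODE for NCBIM37 (mm9), built on Ensembl release 65. The first row per identifier with 3 values was kept (88278 rows) and summed by gene symbol. Differences used a pseudocount of 1 FPKM.

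Depth is not part of FPKM. It was estimated from the lowest peak of the product of FPKM and transcript length, taking single-transcript protein-coding genes between 2500 and 8000 bases. In units of 1000000 fragments this gave 58.7 for the library labelled M1, 60.8 for M2 and 74.8 for CD4. Intervals are exact Poisson or binomial intervals at 95% on the resulting fragment numbers and cover counting error only.

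Members and gene lists were chosen with earlier results of these data known. The genes named were the 9 members, their ligands, markers of T cells, macrophages and B cells, up to 6 genes of highest level in each of the 2 other lists, and the 2 nearest genes per member. F13a1, S100a8, S100a9, Itgax, Cdh16, Ccr8 and Cxcr2 fall outside this choice and were named after their values were seen. Of the 6 highest other receptors 1, and of the B-cell markers 1, are not reported by themselves here, nor is 1 of the coding stretches. Alternatives were another pseudocount, all rows, other scalings, the highest transcript, protein-coding transcripts only and a minimum of 1 FPKM. The calculations were tested on simulated data. Calculations ran in Python 3.11.15 with scipy 1.17.1, pandas 2.3.3 and numpy 2.4.6, and plots in matplotlib 3.10.9. The short coding stretches were read from GENCODE transcripts.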

Additional observations from a re-analysis of the deposited data

Results flagged for a closer look

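Rows that the gene levels leave out held a signal above the level of 3 fragments for 4 receptors. In the library labelled M2 the further rows of Cxcr4 summed to 208 FPKM, above its level of 69.9 FPKM from the rows used, and those of Ccr6 to 5.22 FPKM, above 2.63. For Ccr1 they came to 0.331 FPKM in the same library, beside 3.31. In the library labelled M1 they were 1.15 FPKM for Ccr2, beside 526, and 0.229 for Ccr6, beside 1.01. The libraries labelled M1 and CD4 have a dash in these rows of Cxcr4.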

How the results depend on the processing

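No paired analysis was possible because there was 1 library per subset, so that no test was made. Over the settings tried, 61 of 69 counts of members were within 1.5 times of the value given, and 71 of 189 differences for single members moved beyond counting error. Keeping protein-coding transcripts only could change no member value, since all member transcripts are protein-coding. Nor could the minimum of 1 FPKM change a count past the fold. Both are in these tallies and add no support. The counting error was set at a pseudocount of 1 FPKM without scaling, so moves at other settings include the change of scale. No difference past the fold changed sign, while that of Ccr1 between M1 and CD4, -0.08, became 0.02 at a total of 1000000 FPKM and 0.03 at the mean total. With a pseudocount of 0.1 FPKM, 2 members in place of 1 were past the fold higher in M1 than in CD4. Rescaled to a total of 1000000 FPKM in each library, which makes the values small beside the pseudocount, 0 members were past the fold higher in M2 than in CD4 and 0 than in M1, 1 was lower in M1 than in CD4, 2 were highest in M1 and 1 in CD4. Rescaled to the mean total of the 3 libraries, a choice made after seeing the data, 6 members were higher in M2 than in CD4 and 5 than in M1, with 2 highest in M1 and 1 in CD4, as Ccr1 changed place. Over all genes this setting gave 2850 higher and 1542 lower in M2 than in CD4, against 2146 and 1902. At a total of 1000000, 111 were higher and 72 lower in M1 than in CD4, against 834 and 811. Of 144 list counts 22 moved by more than 1.5 times, and of 48 counts over all genes 10 did. Low levels are limited by depth, with Ccr4 at about 1 fragment in the library labelled CD4.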
